A study of Mus musculus with 24 samples.

Results

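The transcripts of 10 genes of the NF-κB pathway were followed in MIN6 cells, an insulin-secreting line derived from a mouse beta cell tumour, during the first hours of endoplasmic reticulum (ER) stress. The genes encode the 5 NF-κB subunits (Rela, Relb, Rel, Nfkb1 and Nfkb2), 3 inhibitors that hold them in the cytoplasm (Nfkbia, Nfkbib and Nfkbie) and 2 ubiquitin enzymes that restrain or modulate the pathway (Tnfaip3 and Birc3). They were taken by symbol from a table of 24421 genes. All 10 were listed once and all 10 were among the 13761 genes with enough counts to be tested. The 24 libraries of polyadenylated RNA form 6 groups of 4. The cells carried either a GFP plasmid, the control, or a plasmid for the translation initiation factor EIF2A joined to GFP, labelled EIF2A here. Each construct was sampled after the vehicle DMSO (labelled 0 h) and after 1 µM thapsigargin for 1 h or 3 h. Thapsigargin empties the calcium store of the ER by blocking its pump. There is no vehicle group labelled 1 h or 3 h, so the effect of thapsigargin cannot be told apart from that of time or handling. All groups come from this single tumour line, and the labels do not say whether replicates were separate cultures. The p-values thus reflect only how far these libraries spread, and that spread may be technical.

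NF-κB proteins act as dimers. In the canonical branch, RELA or REL paired with p50 (made from NFKB1) waits in the cytoplasm bound to an IκB protein, and the IKK kinases release it by marking the IκB for destruction. In the alternative branch, the kinase NIK (gene Map3k14) accumulates and leads to the processing of NFKB2 to p52, which works with RELB. Several of the genes are themselves NF-κB targets, and the resynthesis of IκBα (Nfkbia) and A20 (Tnfaip3) closes feedback loops. In beta cells, NF-κB is best known for the response to inflammatory cytokines, and the PERK and IRE1 arms of the ER stress response are known to feed into it. The data are mRNA levels, so they hold nothing on the location or binding of the proteins.

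Total counts ran from 10.5 to 22.2 M per library (16.7 to 22.2 M for GFP and 10.5 to 22.1 M for EIF2A), and without molecular identifiers the true error can exceed that of counting. All 14 beta cell markers had counts in every library, with a summed level of 45451 to 124170 counts-per-million (CPM). Eif2a, the gene on the plasmid, went against the labels in replicate 1. It stood at 269.4 to 361.2 CPM in the replicate 1 libraries labelled GFP and at 80.3 to 104.3 CPM in those labelled EIF2A. In replicates 2 to 4 it stood at 77.8 to 101.9 CPM in GFP and at 134.0 to 208.9 CPM in EIF2A. Samples were kept in the groups their labels give, GFP and EIF2A below stand for libraries labelled so, and results are given with and without replicate 1 where it matters. A gene is said to have risen, fallen or been called where edgeR's quasi-likelihood test, adjusted over all genes, gave p under 0.05.

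The promoters show which of these genes carry the letters that NF-κB dimers recognise. RefSeq promoter windows of 300 bases (250 before and 50 after a start, build GRCm38.p6) were held for 8 of the 10 genes. None was held for Relb and Nfkb1, which were thus not searched. A 10-letter κB motif was searched on both strands and was found in windows of 5 of the 8 genes: Nfkb2, Rel, Nfkbia, Nfkbie and Tnfaip3. It was found in 8.46% of all 32851 windows of this length. That share counts windows, whereas a gene counts if any of its windows matched. Nfkb2 had 3 windows and Tnfaip3 had 2, so the share of genes and that of windows are not on the same scale. No match lay in the windows of Rela, Nfkbib and Birc3. The matches that lie wholly upstream of a start are given here on the gene's strand, with the κB match in capitals and up to 9 bases on each side.
Nfkb2, start 1 (chr19:46304689-46304717, plus strand): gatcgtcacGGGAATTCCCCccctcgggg
Nfkb2, start 1 (chr19:46304717-46304736, plus strand): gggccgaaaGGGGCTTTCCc
Nfkb2, start 2 (chr19:46305450-46305477, plus strand): ccgacggcaGGAATGTCCCcacaaaagc
Nfkb2, start 3 (chr19:46305696-46305723, plus strand): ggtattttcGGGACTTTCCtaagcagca
Rel (chr11:23771042-23771070, minus strand): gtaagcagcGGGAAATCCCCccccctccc
Nfkbia (chr12:55492658-55492685, minus strand): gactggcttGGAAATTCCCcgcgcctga
Nfkbie (chr17:45555585-45555612, plus strand): cagcaaacaGGGGGATTCCggaggggcg
Tnfaip3, far match (chr10:19015517-19015544, minus strand): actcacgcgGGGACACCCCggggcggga
Tnfaip3, near match (chr10:19015411-19015431, minus strand): atttccatcGGAAATCCCCct

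Overlapping matches, such as the palindrome-like run at the first Nfkb2 start and the one at Rel, are shown as 1 run of capitals. Of the members with a window, Nfkb2 had the most places, spread over its 3 starts, and its stretches, like those of Tnfaip3, lie inside the gene as GENCODE draws it. At least 2 match positions in 1 window, as at the first and second Nfkb2 starts, at Rel and at the first Tnfaip3 start, occurred in 1.22% of all windows. Of 3 other motifs searched on both strands, the CRE (TGACGTCA, in 1.79% of all windows) was in none of the members' windows. Relb and Nfkb1 had no window to search. The AP-1 motif (TGANTCA, 7.81%) was in windows of Nfkb2, Nfkbie and Tnfaip3, and a composite motif of C/EBP and ATF factors (TGATGNAA, 3.97%) was in the second window of Tnfaip3. None of these 3 motifs overlapped a κB match. A match describes letters only, and binding was not measured.

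Levels were compared between genes as CPM per kilobase of exon. The length used was that of all annotated exons of a gene merged, from 1.61 kb for Nfkbia to 12.061 kb for Nfkb1. A transcript can be shorter than that, so the order of genes depends on the length used. Nfkbia and Rela led in every group and Rel was the lowest or among the lowest. In GFP at 0 h, the mean was 29.5 ± 4.73 CPM per kb for Nfkbia (SD, n = 4), 22.7 ± 0.870 for Rela and 14.9 ± 0.620 for Nfkbib. A second tier held Nfkb2 at 4.34 ± 0.143, Relb at 3.87 ± 1.32, Nfkb1 at 3.33 ± 0.846 and Nfkbie at 2.51 ± 0.309 CPM per kb. Neighbours in this tier differed by less than their SDs together, so their order is not settled. Tnfaip3 at 0.806 ± 0.274, Birc3 at 0.362 ± 0.0605 and Rel at 0.347 ± 0.112 CPM per kb closed the order, and the last pair differed by less than their SDs. The 3 h groups differed from this order mainly through Relb, which reached 14.6 ± 0.984 CPM per kb in GFP and 13.8 ± 2.505 in EIF2A. That put it next to Nfkbib at 16.03 ± 0.974 and 18.03 ± 2.06 CPM per kb.

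**Figure D1:**
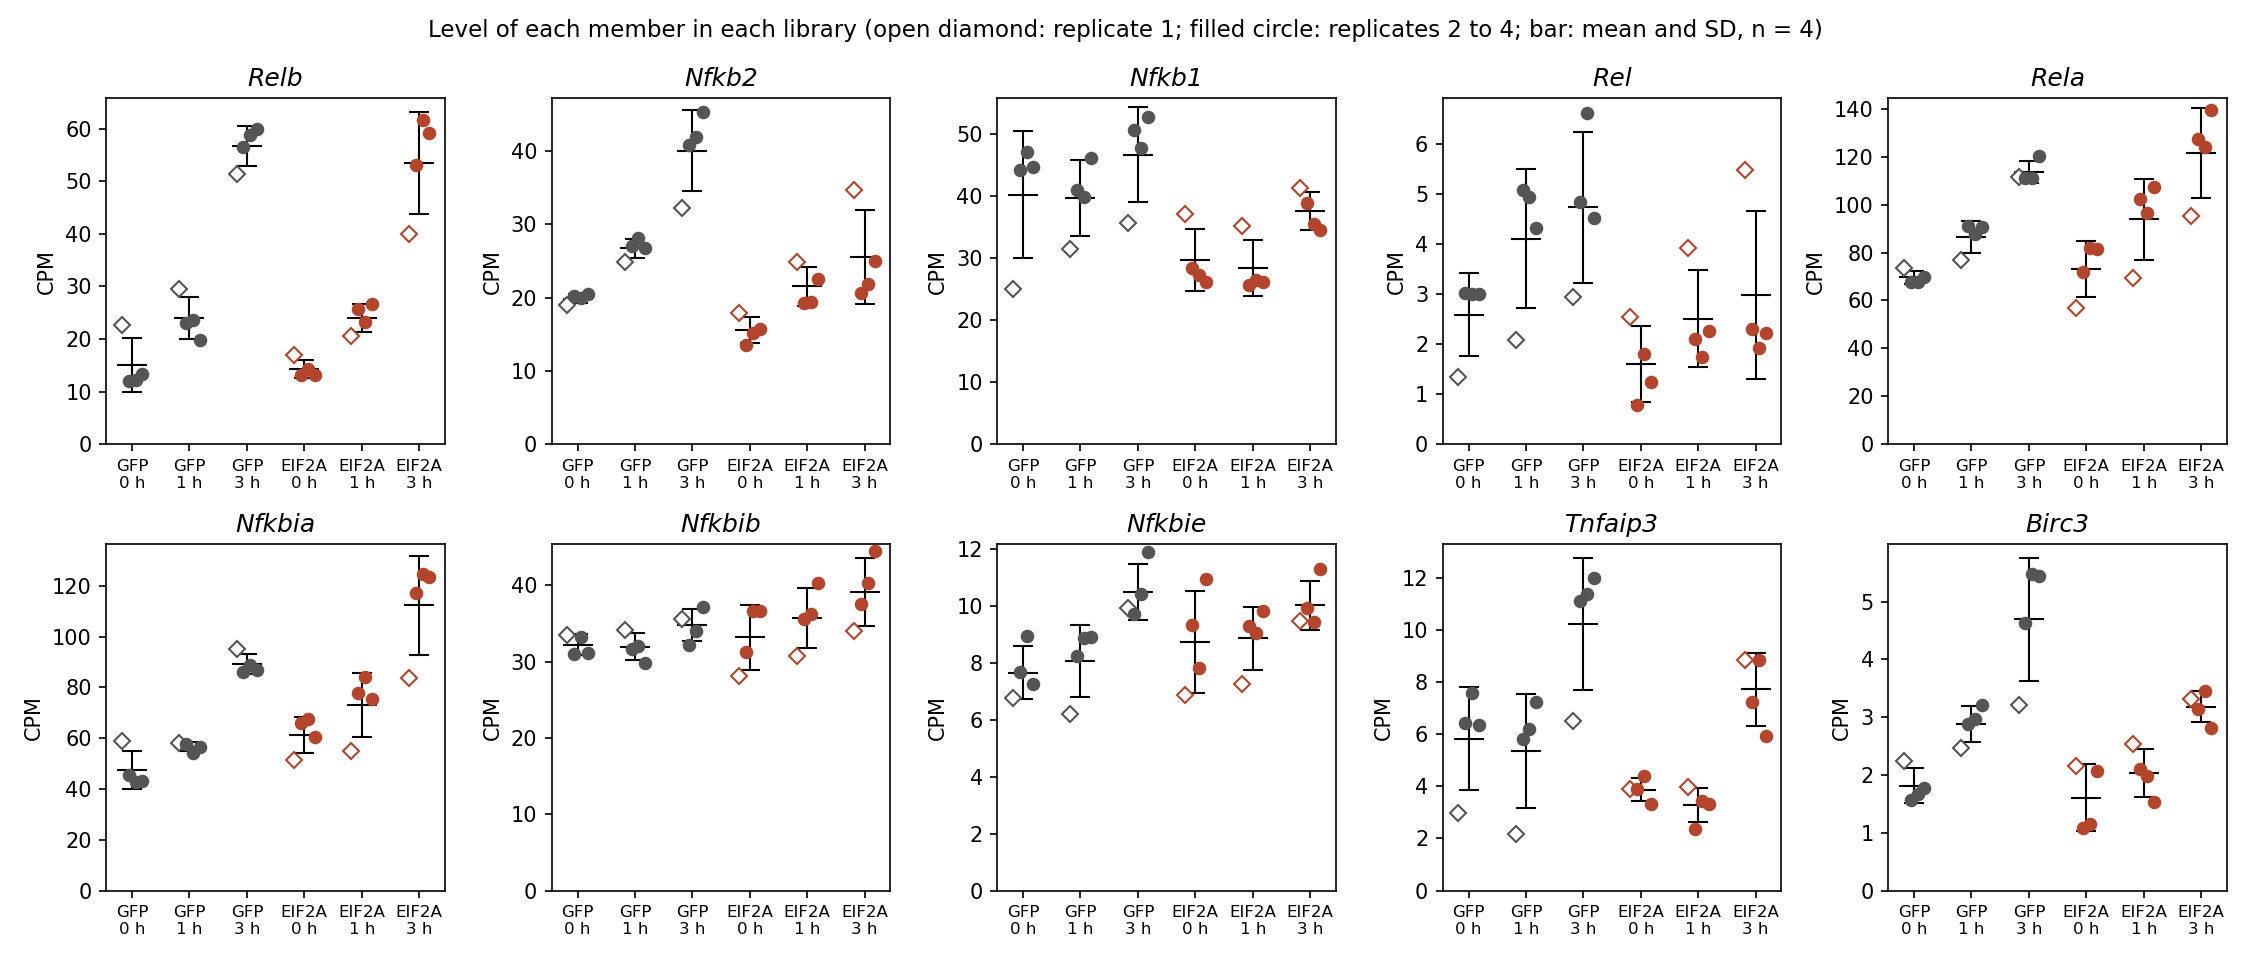
Level of each of the 10 genes in each of the 24 libraries, in CPM on axes that start at 0, with the mean and SD of the 4 libraries of each group. Relb climbs from 0 h to 1 h to 3 h in both constructs, and the open diamonds of replicate 1 stand apart from the filled circles for Nfkb1 and Rel in both constructs and for Tnfaip3 in GFP.

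Relb was the member that rose most in both constructs. It encodes the partner of p52 in the alternative branch and lies at chr7:19606217-19629438, minus strand (GRCm38). In replicates 1 to 4 in turn, GFP libraries held 22.7, 11.99, 12.1 and 13.4 CPM at 0 h, 29.5, 23.1, 23.6 and 19.8 CPM at 1 h and 51.3, 56.6, 58.8 and 59.9 CPM at 3 h. EIF2A libraries held 16.9, 13.1, 14.2 and 13.2 CPM at 0 h, 20.7, 25.8, 23.2 and 26.6 CPM at 1 h and 39.9, 53.02, 61.7 and 59.2 CPM at 3 h. Every 3 h library exceeded every 0 h and 1 h library of its construct. At 1 h the EIF2A libraries did not overlap those at 0 h, whereas in GFP replicate 1 at 0 h lay within the range of the 1 h libraries. The log2 fold change at 3 h was 1.92 ± 0.18 (SE) in GFP, 3.77-fold, with adjusted p = 1.05e-07 in edgeR, and 1.89 ± 0.18, 3.71-fold, with adjusted p = 1.13e-07 in EIF2A. At 1 h Relb rose by 0.68 ± 0.18 in GFP and by 0.74 ± 0.18 in EIF2A (adjusted p = 0.0215 and 0.0109). The 1 h call in GFP was lost when GFP replicate 2, 3 or 4 at 0 h or GFP replicate 1 or 3 at 1 h was left out, with log2 fold changes of 0.56 to 0.68 and adjusted p = 0.0521 to 0.0865. The 3 h response was smaller in replicate 1 of both constructs, and without it the estimates were 2.23 ± 0.08 in GFP and 2.10 ± 0.09 in EIF2A.

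Nfkb2, which encodes the p100 precursor of p52, rose at 3 h in both constructs, by less than Relb. It lies at chr19:46304320-46312385, plus strand. GFP libraries held 18.96, 20.2, 19.9 and 20.5 CPM at 0 h, 24.9, 27.1, 28.1 and 26.8 CPM at 1 h and 32.2, 40.8, 41.9 and 45.3 CPM at 3 h. EIF2A libraries held 17.96, 13.6, 15.2 and 15.7 CPM at 0 h, 24.9, 19.3, 19.5 and 22.5 CPM at 1 h and 34.7, 20.6, 21.8 and 25.1 CPM at 3 h. In GFP the 3 times did not overlap at all. In EIF2A the 0 h libraries lay below all 1 h libraries, and the 1 h and 3 h libraries overlapped. The log2 fold change at 3 h was 1.01 ± 0.14 in GFP (2.02-fold, adjusted p = 9.43e-06 in edgeR) and 0.71 ± 0.14 in EIF2A (1.64-fold, adjusted p = 0.000412). At 1 h it was 0.43 ± 0.14 in GFP (adjusted p = 0.0616, and 2.53e-05 with a replicate block, a term for each series of same-numbered libraries of a construct) and 0.47 ± 0.14 in EIF2A (adjusted p = 0.0372). The 1 h call in EIF2A was lost without EIF2A replicate 2, 3 or 4 at 0 h or EIF2A replicate 1 or 4 at 1 h, where the log2 fold change was 0.39 to 0.47 and the adjusted p 0.0711 to 0.1201. On the opposite strand, Nfkb2 shares 531 exonic bases, 11.6% of its exonic length, with the non-coding AC114539.1 and 299, 6.52%, with Psd, and whether counting used the strand is not given in the sources used here. Psd fell at 3 h, by 0.64 ± 0.09 on the log2 scale in GFP and by 0.65 ± 0.09 in EIF2A (adjusted p = 9.43e-06 and 5.94e-06). AC114539.1 was not analysed here, and its part in the Nfkb2 counts was not tested.

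The subunits of the canonical branch moved less than Relb. Rela encodes p65, the main activating subunit, and lies at chr19:5637483-5648130, plus strand. GFP libraries held 73.4, 67.7, 67.7 and 69.8 CPM of Rela at 0 h, 76.8, 91.1, 87.6 and 90.5 CPM at 1 h and 112, 111, 111 and 120.2 CPM at 3 h. EIF2A libraries held 56.99, 71.9, 81.9 and 81.6 CPM at 0 h, 69.2, 102, 96.3 and 107 CPM at 1 h and 95.2, 127, 124 and 139 CPM at 3 h. The 3 h libraries lay above all 0 h libraries in both constructs, and in EIF2A replicate 1 was the lowest library at each time. Rela rose at 3 h by 0.70 ± 0.13 in GFP and by 0.74 ± 0.13 in EIF2A (adjusted p = 0.000231 and 0.000131 in edgeR). At 1 h the log2 fold changes were 0.31 ± 0.13 and 0.36 ± 0.13 (adjusted p = 0.160 and 0.0808). With the replicate block the 1 h values were 0.31 ± 0.05 and 0.35 ± 0.06 and passed (adjusted p = 3.37e-05 and 8.56e-06).

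Nfkb1, the precursor of p50, lies at chr3:135584655-135691547, minus strand. GFP libraries held 24.98, 44.1, 47.00 and 44.6 CPM at 0 h, 31.3, 40.98, 39.9 and 46.1 CPM at 1 h and 35.6, 50.5, 47.6 and 52.6 CPM at 3 h. EIF2A libraries held 37.05, 28.3, 27.2 and 26.1 CPM at 0 h, 35.1, 25.6, 26.5 and 26.1 CPM at 1 h and 41.2, 38.8, 35.5 and 34.4 CPM at 3 h. Replicate 1 was the lowest GFP library and the highest EIF2A library at every time, and the times overlapped in both constructs. The log2 fold change at 3 h was 0.21 ± 0.17 in GFP and 0.33 ± 0.18 in EIF2A (adjusted p = 0.387 and 0.150 in edgeR). Nfkb1 was nevertheless higher at 3 h than at 0 h in each of the 4 series of both constructs, and with the replicate block the same size of change passed, at 0.23 ± 0.07 and 0.34 ± 0.07 (adjusted p = 0.00490 and 0.000229).

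Rel, the c-Rel subunit known chiefly from lymphoid cells, was near the floor of the data and lies at chr11:23736847-23770970, minus strand. It had 22 to 121 counts per library in GFP and 11 to 96 in EIF2A. GFP libraries held 1.34, 3.03, 2.999 and 3.01 CPM at 0 h, 2.08, 5.096, 4.94 and 4.32 CPM at 1 h and 2.94, 4.86, 6.63 and 4.52 CPM at 3 h. EIF2A libraries held 2.55, 0.789, 1.81 and 1.24 CPM at 0 h, 3.93, 2.096, 1.75 and 2.27 CPM at 1 h and 5.48, 2.31, 1.93 and 2.22 CPM at 3 h. Replicate 1 lay below the other 3 replicates at every time in GFP and above them at every time in EIF2A. The 3 h log2 fold changes were 0.86 ± 0.40 in GFP and 0.89 ± 0.42 in EIF2A, with adjusted p = 0.105 and 0.103 in edgeR and 1.09e-05 and 0.000203 with the replicate block. At 1 h they were 0.66 ± 0.40 and 0.65 ± 0.42 (adjusted p = 0.402 and 0.389), and the block gave 0.000950 and 0.00864.

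Among the IκB inhibitors, Nfkbia was the one whose level changed most. It encodes IκBα, the classical fast feedback inhibitor, and lies at chr12:55489410-55492647, minus strand. GFP libraries held 58.7, 45.4, 42.7 and 42.98 CPM at 0 h, 58.2, 57.7, 54.1 and 56.7 CPM at 1 h and 95.04, 86.02, 88.8 and 86.9 CPM at 3 h. EIF2A libraries held 51.4, 65.9, 67.4 and 60.6 CPM at 0 h, 54.9, 77.9, 84.1 and 75.3 CPM at 1 h and 83.6, 117, 125 and 124 CPM at 3 h. At 3 h no library overlapped those at 0 h in either construct. In GFP, replicate 1 at 0 h stood above all 1 h libraries. Nfkbia rose at 3 h by 0.91 ± 0.14 in GFP (1.88-fold) and by 0.87 ± 0.14 in EIF2A (1.83-fold), with adjusted p = 2.33e-05 and 3.12e-05 in edgeR. At 1 h the values were 0.26 ± 0.13 and 0.25 ± 0.14 (adjusted p = 0.305 and 0.272), and with the replicate block 0.27 ± 0.06 and 0.24 ± 0.06 (adjusted p = 0.000737 and 0.00216). From 1 h to 3 h Nfkbia rose by 0.65 ± 0.13 in GFP and 0.62 ± 0.13 in EIF2A (adjusted p = 0.00365 and 0.00352).

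Nfkbib, which encodes IκBβ (chr7:28758251-28767512, minus strand), was close to flat. Its group means ran from 32.2 ± 1.34 CPM (SD, n = 4) at 0 h to 34.8 ± 2.11 at 3 h in GFP and from 33.2 ± 4.21 to 39.1 ± 4.46 in EIF2A, and libraries of the times overlapped. The 3 h log2 fold change was 0.11 ± 0.10 in GFP (adjusted p = 0.440 in edgeR, 0.0877 with the block) and 0.24 ± 0.10 in EIF2A (adjusted p = 0.0656, 0.000738 with the block). The EIF2A value passed in the unblocked fit without EIF2A replicate 3 or 4 at 0 h or EIF2A replicate 1 at 3 h, at 0.29 to 0.30 with adjusted p = 0.0220 to 0.0436. Nfkbib shares 314 exonic bases with Ccer2 and 42 with Sirt2, both on the opposite strand, so its counts may hold reads of either. Sirt2 fell at 3 h, by 0.34 ± 0.08 on the log2 scale in GFP and 0.44 ± 0.08 in EIF2A (adjusted p = 0.00205 and 0.000148). Nfkbie, which encodes IκBε (chr17:45555703-45563169, plus strand), went from 7.65 ± 0.941 to 10.5 ± 0.977 CPM in GFP and from 8.74 ± 1.78 to 10.02 ± 0.864 CPM in EIF2A. Its libraries at 3 h lay above those at 0 h in GFP and overlapped them in EIF2A. Nfkbie rose in GFP at 3 h, by 0.45 ± 0.15 (adjusted p = 0.0241), and was 0.20 ± 0.15 in EIF2A (adjusted p = 0.333). The GFP call was lost without GFP replicate 1 or 4 at 0 h or GFP replicate 4 at 3 h, at 0.39 to 0.43 with adjusted p = 0.0629 to 0.0818. With the block, Nfkbie passed in GFP (adjusted p = 0.000161) and was 0.21 ± 0.10 in EIF2A (adjusted p = 0.0735).

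Tnfaip3 and Birc3 were low but higher at 3 h. Tnfaip3 encodes A20, a ubiquitin-editing enzyme that shuts off signalling to IKK (chr10:19000910-19015657, minus strand). GFP libraries held 2.98, 6.42, 7.57 and 6.34 CPM at 0 h, 2.18, 5.801, 6.198 and 7.23 CPM at 1 h and 6.48, 11.1, 11.3 and 11.97 CPM at 3 h. EIF2A libraries held 3.91, 3.87, 4.39 and 3.301 CPM at 0 h, 3.97, 2.38, 3.42 and 3.33 CPM at 1 h and 8.85, 7.23, 8.84 and 5.94 CPM at 3 h. In EIF2A all 3 h libraries lay above all others, while in GFP replicate 1 at 3 h fell among the 0 h and 1 h libraries. The level at 1 h was not above that at 0 h, with log2 fold changes of -0.13 ± 0.30 and -0.24 ± 0.31 (adjusted p = 0.910 and 0.750 in edgeR). At 3 h Tnfaip3 rose by 0.81 ± 0.30 in GFP and by 0.99 ± 0.31 in EIF2A (adjusted p = 0.0425 and 0.0146). The GFP call was lost without GFP replicate 1, 2 or 4 at 0 h or GFP replicate 2, 3 or 4 at 3 h, at 0.59 to 0.86 with adjusted p = 0.0622 to 0.131. It passed with the block, at 0.82 ± 0.12 (adjusted p = 4.01e-07).

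Birc3 encodes cIAP2, a ubiquitin ligase that acts at TNF receptors and on NIK (chr9:7848699-7873186, minus strand). GFP libraries held 2.25, 1.56, 1.67 and 1.77 CPM at 0 h, 2.47, 2.87, 2.97 and 3.21 CPM at 1 h and 3.21, 4.62, 5.48 and 5.45 CPM at 3 h. EIF2A libraries held 2.15, 1.08, 1.15 and 2.06 CPM at 0 h, 2.54, 2.096, 1.98 and 1.53 CPM at 1 h and 3.31, 3.14, 3.45 and 2.82 CPM at 3 h. The 3 h libraries lay above the 0 h libraries in both constructs. Counts were low, at 33 to 117 per library in GFP and 12 to 59 in EIF2A. In replicates 1 to 4, log2 CPM at 3 h exceeded that at 0 h by 0.51, 1.57, 1.71 and 1.62 in GFP. The same differences in EIF2A were 0.62, 1.55, 1.59 and 0.45, so the mean response hides a wide spread between series. Birc3 rose at 3 h by 1.37 ± 0.23 in GFP (2.59-fold) and by 0.98 ± 0.24 in EIF2A (1.97-fold), with adjusted p = 0.000102 and 0.00261 in edgeR. At 1 h it was 0.67 ± 0.23 in GFP (adjusted p = 0.0832, and 0.00432 with the block) and 0.34 ± 0.24 in EIF2A (adjusted p = 0.443).

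Counted together, Relb and Nfkb2 were the members called at 1 h and most members were called at 3 h, with none that fell. The members were chosen with earlier results of these data known. The shares of all genes set beside them are therefore for scale and are no test of the members as a set. In GFP at 1 h, 1 of 10 members was called, Relb, where 8.18% of all genes tested were called and 5.78% rose. In EIF2A at 1 h, 2 of 10 were called, Relb and Nfkb2, against 10.5% of all genes called and 6.55% that rose. In GFP at 3 h, 7 of 10 rose (all but Nfkb1, Rel and Nfkbib), against 33.0% of all genes called and 18.4% that rose. In EIF2A at 3 h, 6 of 10 rose (Relb, Nfkb2, Rela, Nfkbia, Tnfaip3 and Birc3), against 36.2% called and 19.6% that rose. The members' median log2 fold change was 0.29 in GFP and 0.30 in EIF2A at 1 h and 0.84 and 0.81 at 3 h, where the median of all genes lay between -0.0163 and -0.00242. Both times share their 0 h libraries, so the 2 responses of a construct are not independent. From 1 h to 3 h, Relb (1.24 ± 0.18, adjusted p = 0.000141 in edgeR), Nfkb2 (0.58 ± 0.14, 0.00950) and Nfkbia rose in GFP, 3 of 10 against 9.77% of all genes called and 5.49% that rose. In EIF2A over that interval, Relb (1.15 ± 0.18, adjusted p = 0.000219), Nfkbia and Tnfaip3 (1.23 ± 0.31, 0.00974) rose, 3 of 10 against 14.9% called and 8.28% that rose. All 10 members were higher at 3 h than at 0 h in 4 of 4 series of each construct, including the 3 or 4 that were not called. The smallest of these differences in log2 CPM was 0.02, for Nfkb1 in GFP. The share of all genes higher in 4 of 4 series was not computed.

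Many calls changed with the replicate block or without replicate 1. With the replicate block, 6 of 10 members were called at 1 h, 9 at 3 h and 8 from 1 h to 3 h in GFP, against 44.6%, 67.1% and 49.7% of all genes. In EIF2A, 5, 9 and 7 were called, against 45.3%, 66.2% and 52.7% of all genes. Nfkbib in GFP and Nfkbie in EIF2A were the members not called at 3 h with the block. From 1 h to 3 h the block added Tnfaip3, Nfkbie, Rela, Nfkb1 and Birc3 in GFP, at 0.23 ± 0.07 (Nfkb1) to 0.96 ± 0.12 (Tnfaip3), and Rela, Nfkb2, Nfkb1 and Birc3 in EIF2A, at 0.24 ± 0.07 (Nfkb2) to 0.64 ± 0.19 (Birc3), with adjusted p of at most 0.00861. Without replicate 1 the counts were 6 at 1 h and 9 at 3 h in GFP (39.4% and 63.0% of all genes) and 5 and 9 in EIF2A (42.0% and 62.6%). At 1 h the members' share was above that of all genes by about 2 members in GFP and 1 in EIF2A. Without replicate 2, 3 or 4 in turn, no member was called at 1 h, 5 of 10 were called at 3 h in GFP, without Nfkbie and Tnfaip3, and 4 or 5 in EIF2A, without Tnfaip3 and, when replicate 2 or 3 was left out, Birc3. The share of all genes called in these fits is not given here, so the lower counts cannot be read as particular to the members. Beta cell markers moved with time as well: of 14 tested, 6 fell in GFP and 5 in EIF2A at 3 h. Of all genes, 33.0% and 36.2% were called then in either direction. The part of the markers in these results was not tested.

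**Figure D2:**
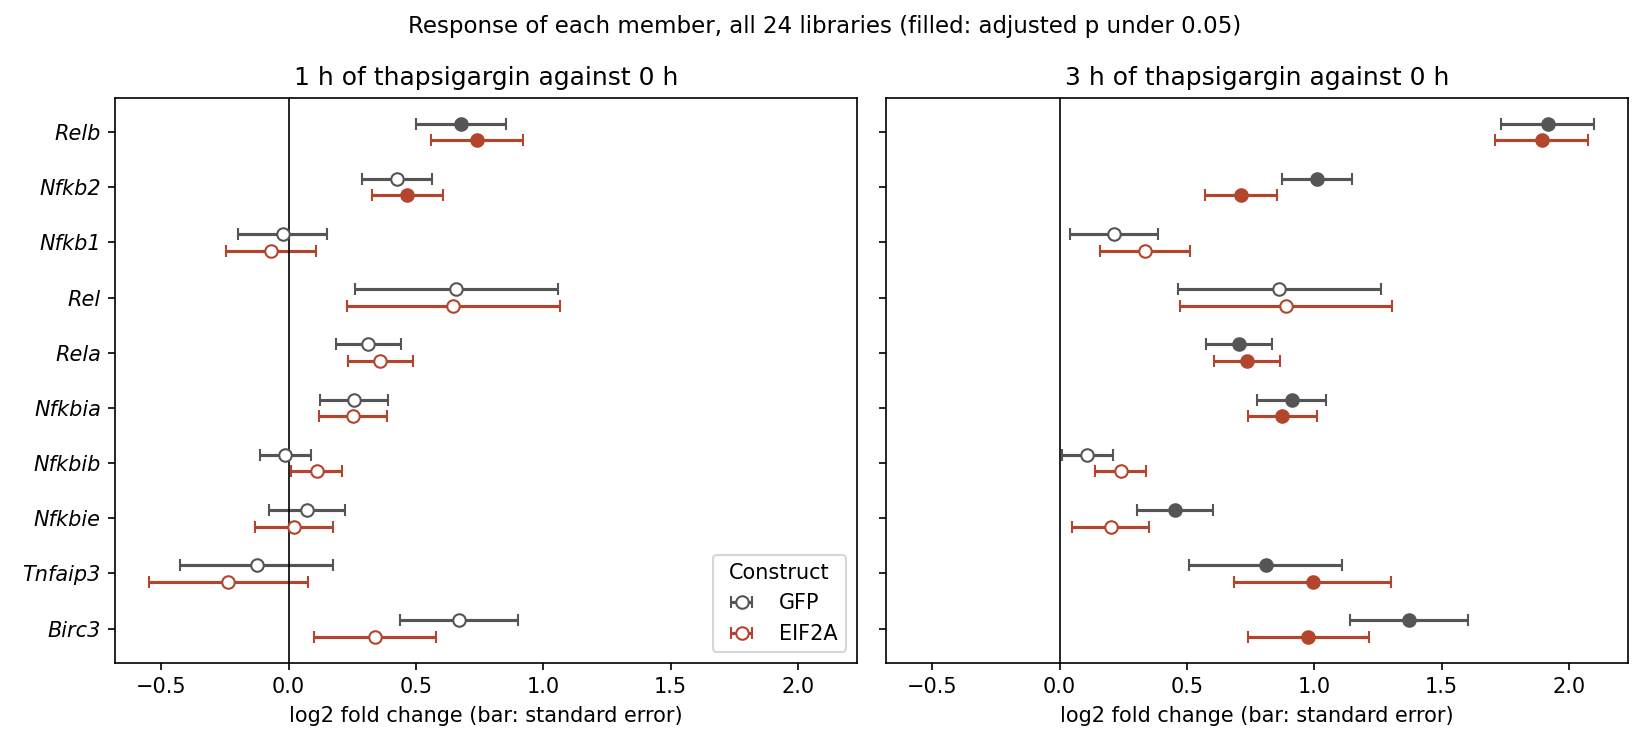
Log2 fold change of each of the 10 genes at 1 h (left) and 3 h (right) of thapsigargin against 0 h, for GFP and EIF2A, with standard errors from the edgeR fit of all 24 libraries. Filled points passed an adjusted p of 0.05; Relb lies farthest to the right at 3 h, at 1.92 in GFP and 1.89 in EIF2A, and no point at 3 h lies below 0.

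Ratios within a library show how the balance between members shifted, on the scale of CPM per kb. The size of a ratio depends on the exon lengths used, such as 12.061 kb for Nfkb1 and 4.584 kb for Nfkb2. Its relative change over time does not. Relb over Rela went from 0.169 ± 0.0502 (SD, n = 4) at 0 h to 0.222 ± 0.0563 at 1 h and 0.395 ± 0.0234 at 3 h in GFP, and from 0.161 ± 0.0493 to 0.205 ± 0.0207 and 0.347 ± 0.0309 in EIF2A. The 3 h ratios lay above all earlier ones in both constructs. Nfkb2 over Nfkb1, the precursors of p52 and p50, went from 1.38 ± 0.413 to 1.803 ± 0.235 and 2.27 ± 0.109 in GFP. In EIF2A it went from 1.396 ± 0.156 to 2.01 ± 0.178 and then 1.79 ± 0.357, where the 3 h libraries overlapped those at 0 h and at 1 h. In EIF2A replicates 2 to 4 the 3 h ratios, 1.398 to 1.92, lay below those at 1 h, 1.94 to 2.27. Nfkbia over Rela, inhibitor over main subunit, had overlapping libraries at 0 h and 3 h in both constructs, at 1.296 ± 0.160 and 1.502 ± 0.101 in GFP and 1.61 ± 0.153 and 1.76 ± 0.113 in EIF2A at 0 h and 3 h. In GFP the overlap came from replicate 1: replicates 2 to 4 held 1.18 to 1.28 at 0 h and 1.38 to 1.53 at 3 h. In EIF2A they overlapped without replicate 1 as well. Nfkbia over Nfkbib went from 1.98 ± 0.274 at 0 h to 3.46 ± 0.211 at 3 h in GFP and from 2.502 ± 0.254 to 3.86 ± 0.419 in EIF2A. These ratios are descriptions and carry no test.

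**Figure D3:**
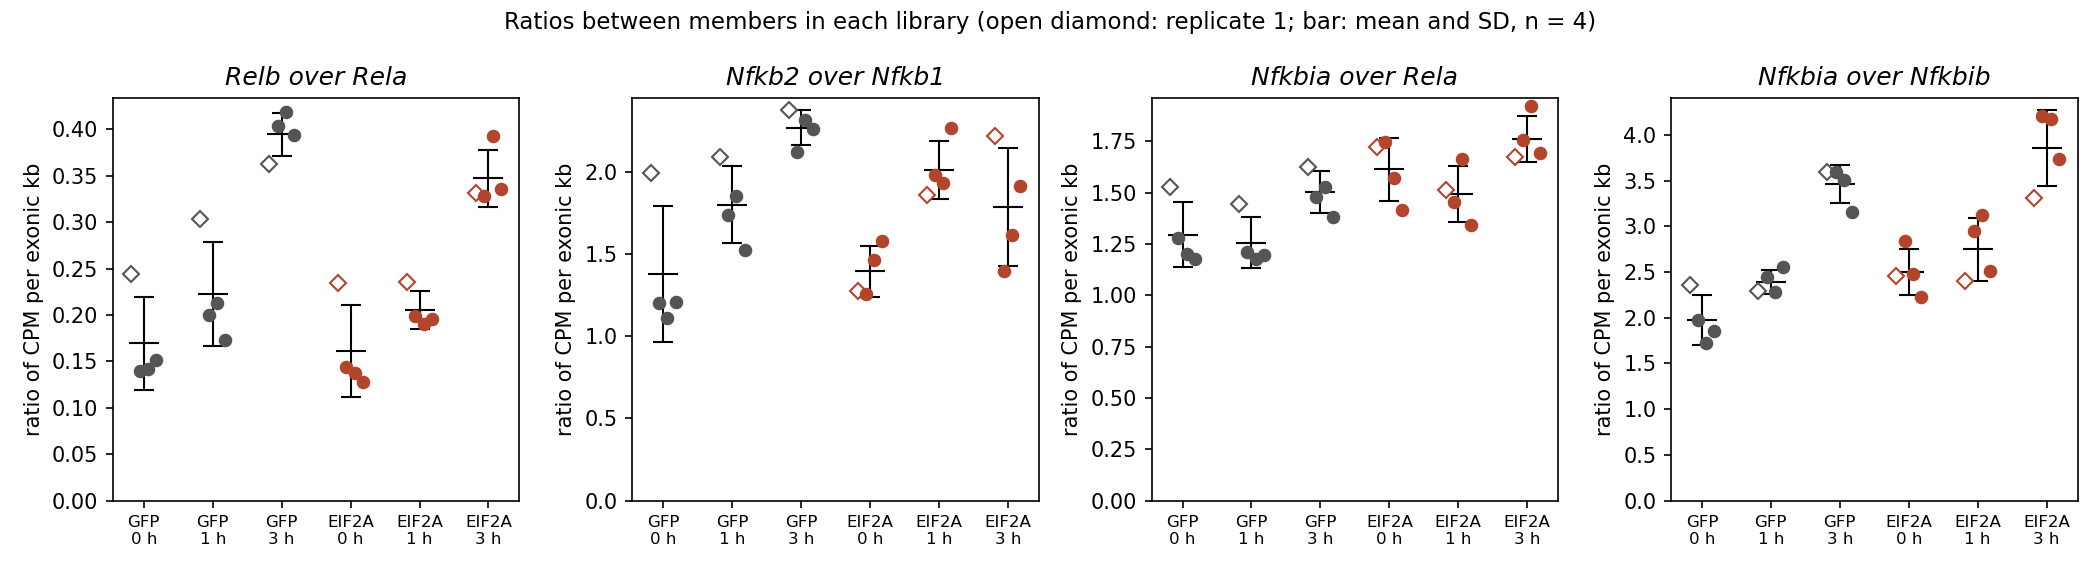
Ratio of CPM per exonic kilobase between pairs of members in each library, with group means and SDs. Relb over Rela is higher in every 3 h library than in any earlier library of its construct, and Nfkb2 over Nfkb1 at 3 h spreads widely in EIF2A, from 1.398 to 2.22.

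Between the constructs, no member was called at 0, 1 or 3 h over all 4 replicates in edgeR, where 0.0218%, 1.02% and 0% of all genes were called. At an unadjusted p under 0.05 there were 3, 5 and 3 members, and DESeq2 called 0, 0 and 1 of 10, Nfkb2 at 3 h. The share of all genes that passed by either of these is not given here, so the counts cannot be read as particular to the members. Replicate 1 went the other way from replicates 2 to 4 in most members, as Eif2a did. For Rel, the EIF2A minus GFP difference in log2 CPM ran from -1.94 to -0.73 over the 9 comparisons of same-numbered libraries in replicates 2 to 4, and from 0.90 to 0.93 over the 3 times of replicate 1. For Tnfaip3 it ran from -1.29 to -0.36 and from 0.39 to 0.87, and for Nfkb1 from -0.82 to -0.38 and from 0.16 to 0.57. These 3 were lower in EIF2A in 9 of 9 comparisons and higher in replicate 1 in 3 of 3. The times of a series are not independent, so the 9 stand for 3 replicate numbers and the 3 for 1. How many of all genes went this way was not counted. Nfkbia ran from 0.41 to 0.66 in replicates 2 to 4 and from -0.19 to -0.08 in replicate 1, Rela from 0.09 to 0.27 and from -0.36 to -0.15, and Nfkbib from 0.01 to 0.43 and from -0.25 to -0.07. These 3 were higher in EIF2A in 9 of 9 comparisons and lower in replicate 1 in 3 of 3. Nfkb2 was lower in 9 of 9, from -0.98 to -0.25, and lay from -0.08 to 0.11 in replicate 1. Relb, the member with the largest response to thapsigargin, ran from -0.09 to 0.42 in replicates 2 to 4, with 5 of 9 higher, and from -0.51 to -0.36 in replicate 1.

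**Figure D4:**
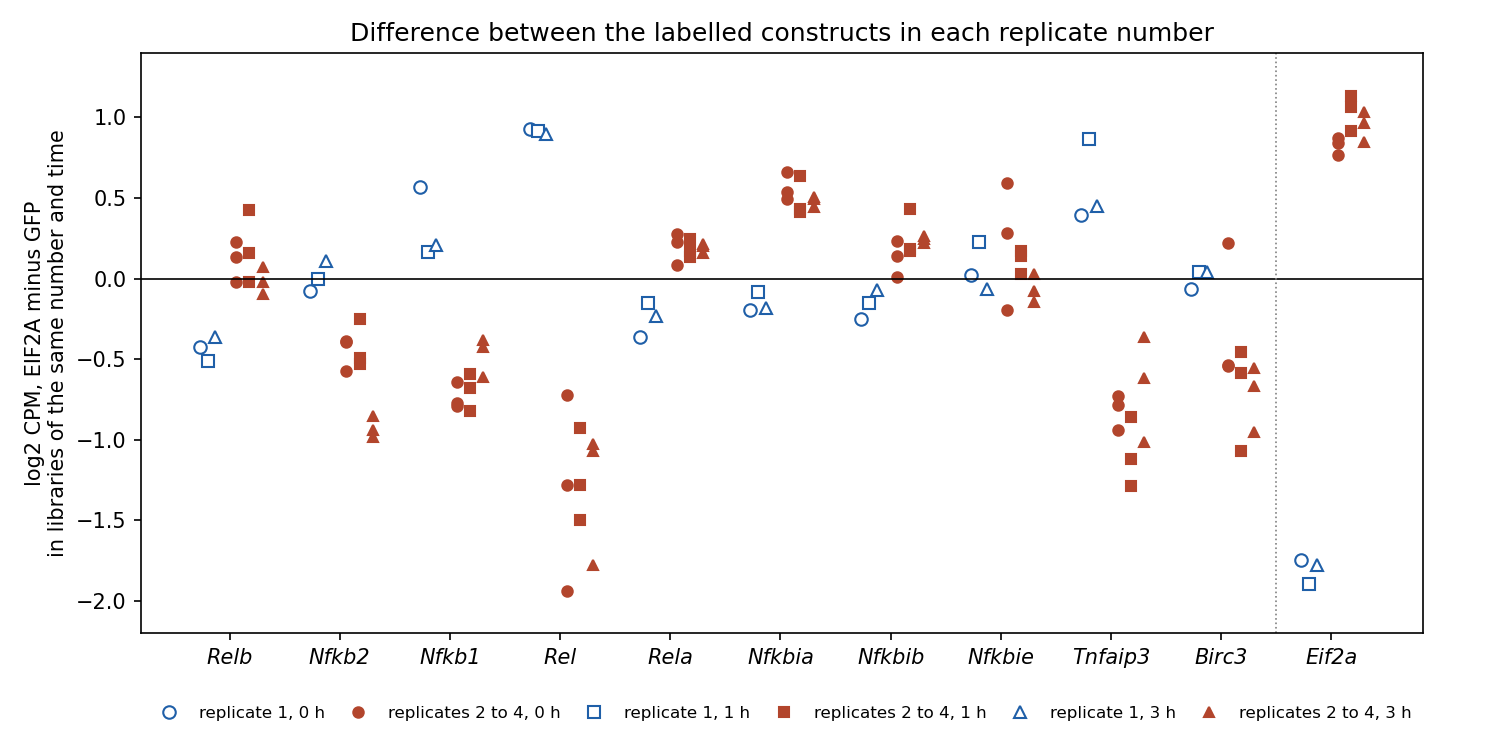
Difference in log2 CPM between the libraries labelled EIF2A and GFP of the same replicate number and time, for each member and for Eif2a, with replicate 1 as open symbols and replicates 2 to 4 as filled symbols. For Nfkb1, Rel, Rela, Nfkbia, Nfkbib, Tnfaip3 and Eif2a all open symbols lie on the other side of 0 from all filled ones.

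Without replicate 1, which leaves 3 libraries a group, most members differed between the constructs, as did most genes. At 0 h, 6 of 10 were called, against 64.8% of all genes: Rel (-1.28 ± 0.24, adjusted p = 0.000144 in edgeR), Tnfaip3 (-0.81 ± 0.17, 0.000318), Nfkb1 (-0.73 ± 0.07, 2.99e-08) and Nfkb2 (-0.46 ± 0.09, 0.000177) were lower in EIF2A, and Nfkbia (0.57 ± 0.06, 6.30e-08) and Rela (0.20 ± 0.06, 0.0102) were higher. At 1 h, 9 of 10 were called, all but Nfkbie, against 70.0% of all genes, and at 3 h, 8 of 10, all but Relb and Nfkbie, against 67.6%. The members' share was near that of all genes at 0 h and above it by 1 or 2 members at the later times. The signs of the 6 genes named at 0 h held at both later times. For Relb the difference was 0.11 ± 0.10 at 0 h (adjusted p = 0.312), 0.19 ± 0.08 at 1 h (adjusted p = 0.0452) and -0.01 ± 0.07 at 3 h (adjusted p = 0.888). Birc3 was lower in EIF2A at 1 h and 3 h (-0.70 ± 0.19 and -0.72 ± 0.15, adjusted p = 0.00245 and 0.000258). Leaving out a single library already changed calls: without EIF2A replicate 1 at 0 h, Nfkb2 (-0.43), Nfkb1 (-0.56) and Nfkbia (0.45) were called at 0 h, without that at 1 h the same genes at 1 h (-0.39, -0.60 and 0.48), and without that at 3 h Nfkb2 (-0.83), Rel (-1.14) and Nfkbia (0.45) at 3 h. Without GFP replicate 1 at 1 h, Tnfaip3 was called at 1 h (-0.96).

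Of the markers of macrophages, C1qa and Cd68 moved with the same difference and others did not. The summed level of the 16 markers was 27.8 to 70.0 CPM in GFP and 11.1 to 45.8 CPM in EIF2A in replicates 2 to 4, and in replicate 1 it was 20.4 to 39.6 CPM in GFP and 56.5 to 99.5 CPM in EIF2A. Between 6 and 16 of the 16 had counts in a library, 9 were tested, and 2 of these rose in GFP at 3 h, where 18.4% of all genes rose. Most of the sum in each of the 24 libraries was C1qa, up to 90.8 CPM, and without it the sum was 1.09 to 26.3 CPM. At 0 h in replicates 2 to 4 the sum without C1qa was 5.48, 6.88 and 7.36 CPM in GFP and 2.295, 7.45 and 12.3 CPM in EIF2A, and so overlapped. Without replicate 1, 2 of the 9 tested were lower in EIF2A at 0 h, Cd68 at -2.35 ± 0.24 and C1qa at -0.97 ± 0.15 (adjusted p = 7.49e-08 and 1.01e-05 in edgeR), and 1 was higher, Fcer1g at 1.28 (adjusted p = 0.0229). Of all genes, 64.8% were called in that comparison, so these calls cannot be read as particular to the markers. Csf1r at 0 h ran from 0 to 0.269 CPM in GFP and from 0.0717 to 2.37 CPM in EIF2A in replicates 2 to 4. Of the 16 markers, 5 had no count in more than 12 of the 24 libraries (Adgre1 in 17, Aif1 and C1qc in 15, Spi1 in 14, Ctss in 13) and 3 had counts in every library (C1qa, Cd68 and Fcer1g). Ptprc was at 0 in 10 and Csf1r in 4. The highest level without C1qa was in GFP replicate 4 at 3 h, which also had 132 counts of Csf1r. In the other 23 libraries the sum without C1qa reached 13.6 CPM. Markers of lymphocytes reached 0.605 CPM in sum, of endothelial cells 1.91 CPM and of mesenchymal cells 13.0 CPM. The part of other cells in these differences was not tested.

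The interaction asks whether the response to thapsigargin itself differed between the constructs. Over all 4 replicates edgeR called no member at 1 h or 3 h, with 0 of 10 at an unadjusted p under 0.05 at either time, DESeq2 called none, and 0% of all genes were called at both times. For Relb the difference in response at 3 h was -0.02 ± 0.25 on the log2 scale, EIF2A minus GFP. For Nfkb2 it was -0.30 ± 0.20 (adjusted p = 0.9999). Without replicate 1, Nfkb2 was the 1 member called at 3 h, at -0.47 ± 0.12 (adjusted p = 0.0282), against 4.12% of all genes, and none was called at 1 h, against 0.816%. In replicates 2 to 4, Nfkb2 rose from 0 h to 3 h by 1.08 ± 0.07 in GFP and by 0.61 ± 0.09 in EIF2A. The other 9 differences at 3 h lay between -0.46 (Birc3) and 0.26 (Nfkb1) and did not pass.

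The rest of the pathway is given by 4 lists, of which 61 genes were tested. These lists too were chosen with earlier results of these data known. Together 18 rose and 7 fell at 3 h in GFP, 41.0% called where 33.0% of all genes were, and 16 rose and 7 fell in EIF2A, 37.7% called against 36.2%. Of 19 ligands and receptors 11 were tested, and at 3 h 2 rose and none fell in GFP and 1 rose and none fell in EIF2A, with medians of 0.07 and -0.03. In GFP these were Tnfrsf1a, the main TNF receptor (0.30 ± 0.11, adjusted p = 0.0346 in edgeR), and Ltb, a subunit of lymphotoxin (2.81 ± 0.92, 0.0219). Ltb rests on a few reads, with 0 to 0.122 CPM at 0 h and 0.0548 to 0.699 CPM at 3 h in GFP, and its fitted fold change is no measure of size. Of 25 adaptors, ligases and kinases 24 were tested, and 7 rose and 3 fell in GFP and 8 rose and 4 fell in EIF2A, with medians of 0.20 and 0.27. Map3k14, the NIK kinase of the alternative branch, went from 8.55 ± 0.818 CPM (SD, n = 4) to 14.1 ± 2.79 at 1 h and 20.9 ± 2.76 at 3 h in GFP, and from 8.51 ± 1.98 to 14.8 ± 3.999 and 21.9 ± 5.65 in EIF2A. Its rise at 3 h in GFP was 1.29 ± 0.22 (adjusted p = 0.000126), the largest called in that list there. Ripk1, a kinase of the TNF receptor complex, rose by 0.52 ± 0.07 (adjusted p = 1.28e-05), and Birc2, the cIAP1 relative of Birc3, by 0.49 ± 0.08 (7.99e-05).

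Of 14 other inhibitors and nuclear IκB proteins 13 were tested, and 5 rose and 2 fell in GFP and 5 rose and 1 fell in EIF2A at 3 h, with medians of 0.18 and 0.31. Tnip2, an A20-binding protein, rose by 0.92 ± 0.15 in GFP and Otud7b, a deubiquitinase, by 0.40 ± 0.09, while Commd1, which promotes the breakdown of RELA, fell by 0.50 ± 0.10 on the log2 scale (adjusted p = 6.17e-05, 0.000999 and 0.000501 in edgeR). Of 30 known target genes 13 were tested, and 4 rose and 2 fell in GFP and 2 rose and 2 fell in EIF2A, with medians of 0.28 and 0.11. Gadd45b, a stress gene, rose by 1.45 ± 0.19 and the transcription factor Irf1 by 0.68 ± 0.15, while Sod2, the mitochondrial superoxide dismutase, fell by 0.50 ± 0.09 in GFP (adjusted p = 4.18e-06, 0.00106 and 0.000121). The other 17 targets did not reach the count filter. Of all genes tested, 33.0% were called at 3 h in GFP and 36.2% in EIF2A. At 1 h, 4 of the 61 genes tested in the 4 lists, 6.56%, rose in GFP and 4 in EIF2A, and none fell, where 5.78% and 6.55% of all genes rose.

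**Figure D5:**
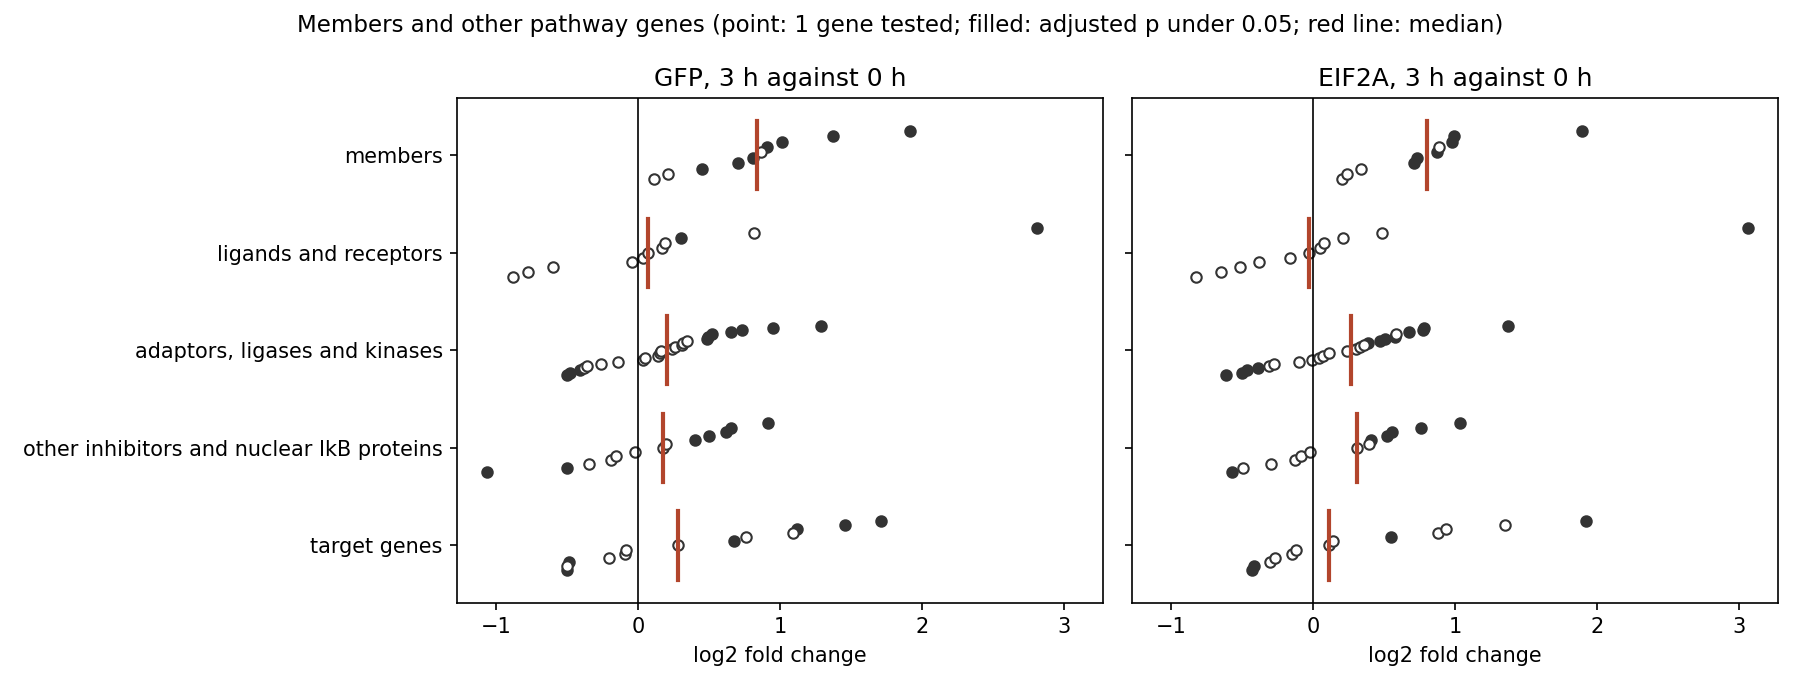
Log2 fold change at 3 h against 0 h of the 10 members and of the tested genes of 4 further pathway lists, in GFP (left) and EIF2A (right), with 1 point a gene and the median as a red line. The median of the members lies at 0.84 and 0.81 and those of the other lists between -0.03 and 0.31; the point far to the right among ligands and receptors is Ltb, which rests on a few reads.

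The genes whose pattern was most like that of 3 members were named by Pearson's r of log2 CPM over the 24 libraries, each construct and replicate number centred at its own mean, among 10907 candidate genes that averaged 5 CPM or more. All genes were measured in the same libraries and followed over the same times, so these values describe likeness in time course only. For Relb they were Cars (0.996), Itfg2 (0.994), Aars (0.991), Tnks1bp1 (0.990) and Lars (0.990). Cars, Aars and Lars encode tRNA synthetases, and they rose at 3 h in GFP by 1.17, 1.09 and 1.01 (adjusted p = 3.45e-06, 3.64e-07 and 1.68e-07 in edgeR). For Nfkb2 they were Gdap2 (0.984), Dus2 (0.977), Rrs1 (0.975), Cdca5 (0.972) and Id3 (0.972). For Nfkbia they were Nfe2l1 (0.995), Unk (0.992), Dusp16 (0.991), Cry2 (0.990) and Hist1h1c (0.990), where Nfe2l1 encodes a stress-responsive transcription factor of the ER membrane and Dusp16 a phosphatase of MAP kinases. No other member was among these genes.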

How the data were processed

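Polyadenylated RNA of 24 libraries was measured, prepared with a stranded mRNA kit per the labels' protocols. Per the submitters' processing notes, bcl2fastq, STAR and the build mm10 were used. Not given in the sources used here were their versions, the program that counted reads, its annotation and its strand setting. What the authors deposited are unnormalized whole-number counts of each gene. Lines that name no gene, 11.3 to 18.4% of counts in a library, were left out. Members and lists were chosen with earlier results of these data known.

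The test was edgeR's (version 4.0.16, R 4.3.3), with scaling by TMM, filterByExpr at its defaults (minimum count 10, minimum total 15), robust quasi-likelihood fits of 6 group means (18 residual degrees of freedom), 11 contrasts, and Benjamini-Hochberg adjustment over 13761 genes. CPM use library totals scaled by TMM. The test was also run on simulated counts with known changes, drawn independently for each library. These held no effect of a series or replicate number, so the run cannot show how the test behaves with one. Alternatives were DESeq2 1.42.0, its size factors, library totals alone, no filter, a replicate block, and leaving out each replicate number or library. Every member was described in every group. Each pathway list was given by its counts, its median and up to 3 called genes of smallest p in GFP at 3 h. Exonic lengths and positions came from GENCODE M21 (GRCm38).

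Titles number the replicates 1 to 4. Deviations from group means of same-numbered libraries of a construct correlated at 0.510 to 0.933, which meets the rule for pairing, and 22 of 24 libraries correlated best with their own number. With replicates 2 to 4 alone the range was -0.0264 to 0.312, so the pairing rests mainly on replicate 1. The main fit nevertheless held no term for the series, so pairing within a construct enters only the replicate block. At 1 h in GFP the standard error was 0.135 in the main fit and 0.061 with the block for Nfkbia. For Relb it was 0.178 and 0.181. Across constructs same-numbered libraries correlated at -0.663 to -0.159 and were not treated as pairs in the main fit either. They were set side by side to describe the constructs. For comparisons between constructs, the replicate block held a term for the shared number in spite of these negative correlations. Chi-square over degrees of freedom between libraries of a group was 1.32 to 19.1 within replicates 2 to 4 and 64.1 to 143.6 with replicate 1, where 1 is counting error alone.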

Additional observations from a re-analysis of the deposited data

Results flagged for a closer look

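In each of 60 groups of 4 libraries (10 members in 6 groups), a library was singled out when its gap to the nearest other library was a larger part of the group's range than Dixon's 95% critical value. Chance gives about 1 in 20 such groups. There were 8, and 7 of them were replicate 1. In GFP at 0 h, replicate 1 stood at 22.7 CPM of Relb (others 11.99 to 13.4), 58.7 CPM of Nfkbia (others 42.7 to 45.4), 24.98 CPM of Nfkb1 (others 44.1 to 47.0) and 1.34 CPM of Rel (others 3.00 to 3.03). In GFP at 3 h, replicate 1 stood at 6.48 CPM of Tnfaip3 (others 11.1 to 11.97). In EIF2A, replicate 1 stood at 35.1 CPM of Nfkb1 at 1 h (others 25.6 to 26.5) and at 5.48 CPM of Rel at 3 h (others 1.93 to 2.31). The remaining one was replicate 4 in GFP at 3 h, at 120.2 CPM of Rela (others 111.0 to 111.7). These libraries share the replicate number in which Eif2a goes against the labels, except the last.

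The response of Nfkb2 at 3 h differed between the constructs when replicate 1 was left out, with an interaction of -0.47 ± 0.12 on the log2 scale and adjusted p = 0.0282 in edgeR. In replicates 2 to 4, Nfkb2 rose by 1.08 in GFP and by 0.61 in EIF2A.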

How the results depend on the processing

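No called value changed sign under the alternatives run. Counts of the 10 members called are given first as in the report and then under each alternative that moved them by over 1.5 times. For GFP at 1 h the count was 1, with 3 under DESeq2 and 6 with the replicate block, with or without replicate 1. It ran from 0 to 6 over the fits that left out a replicate number or a library, 6 being without replicate 1. For EIF2A at 1 h it was 2, with 1 by library totals alone or with no filter, 5 with the block, with or without replicate 1, and 0 to 5 over leave-outs. From 1 h to 3 h it was 3 in GFP, with 6 under DESeq2, 7 by library totals, 8 with the block, 9 with the block and replicate 1 left out, and 1 to 8 over leave-outs. In EIF2A it was 3, with 7 by library totals, 7 with the block, 6 with the block and replicate 1 left out, and 1 to 6 over leave-outs. At 3 h against 0 h no alternative apart from leave-outs moved the count by over 1.5 times, from 7 in GFP and 6 in EIF2A, and leave-outs gave 5 to 9 and 4 to 9. Between constructs the count was 0 at each time, and the replicate block, here a term for the shared number, gave 0 at 0 h and 1 h and 1 at 3 h (Nfkb2, -0.66, adjusted p = 0.0116 in edgeR), as did DESeq2 (Nfkb2, -0.63, adjusted p = 0.00613). With the block and replicate 1 left out it was 6, 9 and 8, and over leave-outs 0 to 6, 0 to 9 and 0 to 8. For the interaction at 3 h it was 0, with 2 under the block without replicate 1 and 0 to 1 over leave-outs, and at 1 h it was 0 throughout. Within each construct every count was higher without replicate 1 and lower without replicate 2, 3 or 4. The cause was not tested, and the share of all genes called without replicate 2, 3 or 4 is not given here. Single libraries also moved counts by over 1.5 times. The GFP count at 1 h fell to 0 without GFP replicate 2, 3 or 4 at 0 h or replicate 1 or 3 at 1 h. The EIF2A count at 1 h fell to 1 without EIF2A replicate 2, 3 or 4 at 0 h or replicate 4 at 1 h. From 1 h to 3 h the count was 5 without GFP replicate 1 at 3 h, and 5 without EIF2A replicate 1 at 1 h. Scaling by library totals moved the median of all genes at 3 h against 0 h by 0.116 (GFP) and 0.146 (EIF2A) on the log2 scale, at 3 h against 1 h by 0.111 and 0.173, and between constructs at 1 h by -0.131. Nfkbib at 3 h in EIF2A was 0.24 in the report and 0.40 by totals, a call that totals added. Tnfaip3 at 3 h in GFP lost its call with RLE size factors (adjusted p = 0.0503) and with no filter (0.0562), and Nfkb2 at 1 h in EIF2A with no filter (0.0542) and by totals (0.0559), all in edgeR. Depth limits Rel and Birc3 most, with as few as 11 and 12 counts in a library.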
